A study of Mus musculus with 7 samples.

Results

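Neuropeptide receptors and other genes best known from the nervous system, 9 in all, were followed in mouse CD4+ T cells with and without Kdm6a, which lies on the X chromosome and encodes the histone demethylase UTX. They were Nmur1, Vipr1, Ramp1 and Ramp3, which encode neuropeptide receptors or receptor partners, Penk, which encodes a neuropeptide precursor, and Sorcs2, Nrn1, Nptxr and Sprn, which encode neuronal surface proteins. The 9 genes were found by matching their symbols to the Ensembl identifiers of a table of 39017 genes. They were selected on their cKO and WT values in these same libraries, so their differences between the groups are given as a description. The calls of a fit across all genes are counted once for them, with nothing read from that count.

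RNA was sequenced from 4 conditional knockout (cKO) libraries, replicates 2, 3, 7 and 12, and 3 wild-type (WT) libraries, replicates 10, 14 and 19. Both groups came from female C57BL/6 mice that carried floxed Kdm6a on both alleles. The cKO group also carried 1 copy of the CD4-Cre transgene and the WT littermates carried none, so Cre and the deletion cannot be told apart. Experimental autoimmune encephalomyelitis, a mouse disease of the myelin sheath, had been induced in all of them. Their lymph nodes were taken on day 17 and the cells cultured for 18 hours with 25 µg/mL of peptide 35 to 55 of myelin oligodendrocyte glycoprotein before the CD4+ T cells were sorted. CD4-Cre is active in T cells from their development in the thymus onwards. The labels give no age, and nothing in them states that each library came from a separate animal, so the errors measure the spread between libraries.

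Neuropeptides are cut from larger precursors and act on membrane receptors that signal through G proteins. The VIP receptor VPAC1, encoded by Vipr1, and the CGRP receptor raise cyclic AMP, which dampens T cell activation, whereas the neuromedin U receptor of Nmur1 acts mainly through Gq and calcium. The CGRP receptor consists of the protein of Calcrl together with that of Ramp1, and the same Calcrl protein with that of Ramp2 or Ramp3 binds adrenomedullin instead. In immune cells Nmur1 is known from type 2 innate lymphoid cells (ILC2), and Vipr1 from resting T cells.

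The start regions of the 4 receptor and receptor partner genes are shown because their content of CG dinucleotides differed widely. RefSeq windows on GRCm38.p6, the mm10 build, were found for 5 of the 9 genes. Each line gives the 250 bases before a RefSeq start, 5′ to 3′ on the strand of the gene, with CG dinucleotides in capitals.
Nmur1, chr1:86389362-86389611, minus strand: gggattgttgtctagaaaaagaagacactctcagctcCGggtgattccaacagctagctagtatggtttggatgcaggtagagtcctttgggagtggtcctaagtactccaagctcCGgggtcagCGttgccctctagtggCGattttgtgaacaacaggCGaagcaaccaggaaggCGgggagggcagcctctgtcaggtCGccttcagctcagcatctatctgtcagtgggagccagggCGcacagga
Ramp1, chr1:91179572-91179821, plus strand: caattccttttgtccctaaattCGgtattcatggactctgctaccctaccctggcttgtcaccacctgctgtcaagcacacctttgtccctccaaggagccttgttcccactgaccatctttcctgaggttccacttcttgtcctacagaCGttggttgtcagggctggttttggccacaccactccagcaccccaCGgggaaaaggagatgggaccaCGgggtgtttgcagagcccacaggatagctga
Ramp3, chr11:6658283-6658532, plus strand: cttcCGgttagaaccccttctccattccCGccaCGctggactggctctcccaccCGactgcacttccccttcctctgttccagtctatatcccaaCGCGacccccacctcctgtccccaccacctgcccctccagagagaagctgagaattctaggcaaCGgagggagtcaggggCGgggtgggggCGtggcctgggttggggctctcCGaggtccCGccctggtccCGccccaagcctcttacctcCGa
Vipr1, chr9:121642466-121642715, plus strand: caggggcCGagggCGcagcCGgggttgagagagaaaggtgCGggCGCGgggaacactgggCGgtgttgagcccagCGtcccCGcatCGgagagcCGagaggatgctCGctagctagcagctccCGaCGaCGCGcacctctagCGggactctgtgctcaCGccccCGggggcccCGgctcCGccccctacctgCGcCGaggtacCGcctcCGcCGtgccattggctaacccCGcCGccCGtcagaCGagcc

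Over the whole 300-base window, which runs 50 bases past the start, the Vipr1 start held 35 CG dinucleotides, more than 93% of the 32851 RefSeq windows. The Ramp3 start held 15 and the Nmur1 start shown above held 10, against a median of 7 over all windows. The Ramp1 start held 6, and the Sprn window, not printed because it lies mostly in an annotated exon of the gene, held 13. A further Nmur1 start held 2. Both Nmur1 windows lie inside the annotated gene, which begins at 86426228 on the minus strand. The cyclic AMP response element TGACGTCA (in 1.79% of all windows), the AP-1 site TGANTCA (7.81%) and the T-box site AGGTGTNA (3.03%), searched on both strands, had no match in any of the 6 windows of these 5 genes. This says only that these letters were not in these windows.

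Total counts ran from 17910536 (cKO replicate 2) to 28697579 (WT replicate 14). The cKO replicate 2 library stood apart: its chi-square per gene against the other libraries was 56.4 to 119, where that of all other pairs was 6.28 to 35.0. The transcript Gm42418 held 9.22% of its counts against 2.55% to 4.26% elsewhere. That chi-square included Gm42418, so these observations are not separate. In a principal component analysis, cKO replicate 2 lay furthest out in cKO on the first component (-47.98 against -17.75 to -15.10). On the second it was cKO replicate 12 (-44.88 against 1.36 to 21.60). Kdm6a itself had 96.3 to 104 CPM (read counts scaled to library size with TMM factors) in cKO and 113 to 125 in WT, a fall by 0.24 ± 0.06 (SE) on the log2 scale (edgeR, adjusted p = 0.0414). Leaving out cKO replicate 3, 7 or 12 or any WT library ended that call (adjusted p from 0.0538 to 0.173), as did the marker covariate (0.0869). Counts over the whole gene do not show which exons were deleted. The labelled cell type was borne out by Cd4, with 986 to 1241 CPM. Cd8a had at most 2.78 CPM. Cd8a and Cd8b1 together summed to 12.9 to 16.3 CPM in cKO and 9.12 to 11.5 in WT, and 0 of these 2 were called. Of 12 neuron markers, 4 were abundant enough to be tested, and their 12 values summed to between 6.76 and 10.6 CPM per library, with Elavl4 at 0 throughout. The 8 glia markers summed to 275 to 324 CPM, of which Mbp alone held 271 to 320, and Mog had no count in any library.

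In cKO cells Nrn1, Nptxr, Sprn and Nmur1 were higher, Ramp1 and Sorcs2 were lower, and Ramp3 and Penk had overlapping groups. Vipr1 was also lower in every cKO library than in every WT library, by a smaller amount (log2 -0.39 ± 0.18, SE), and was not called. All 9 genes were tested, each being above the minimum of the filter on low counts in all 7 libraries. edgeR called 4 higher and 2 lower at an adjusted p under 0.05, where 6.44% of all 15968 genes tested were called, 2.79% higher and 3.64% lower. In 7 of the 9 the cKO and WT libraries did not overlap, as in 21.0% of all genes tested. Because this contrast chose the genes, nothing is read from these counts. In sorted bulk samples a change in the share of cells that express a gene and a change in its RNA per cell cannot be told apart.

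**Figure D1:**
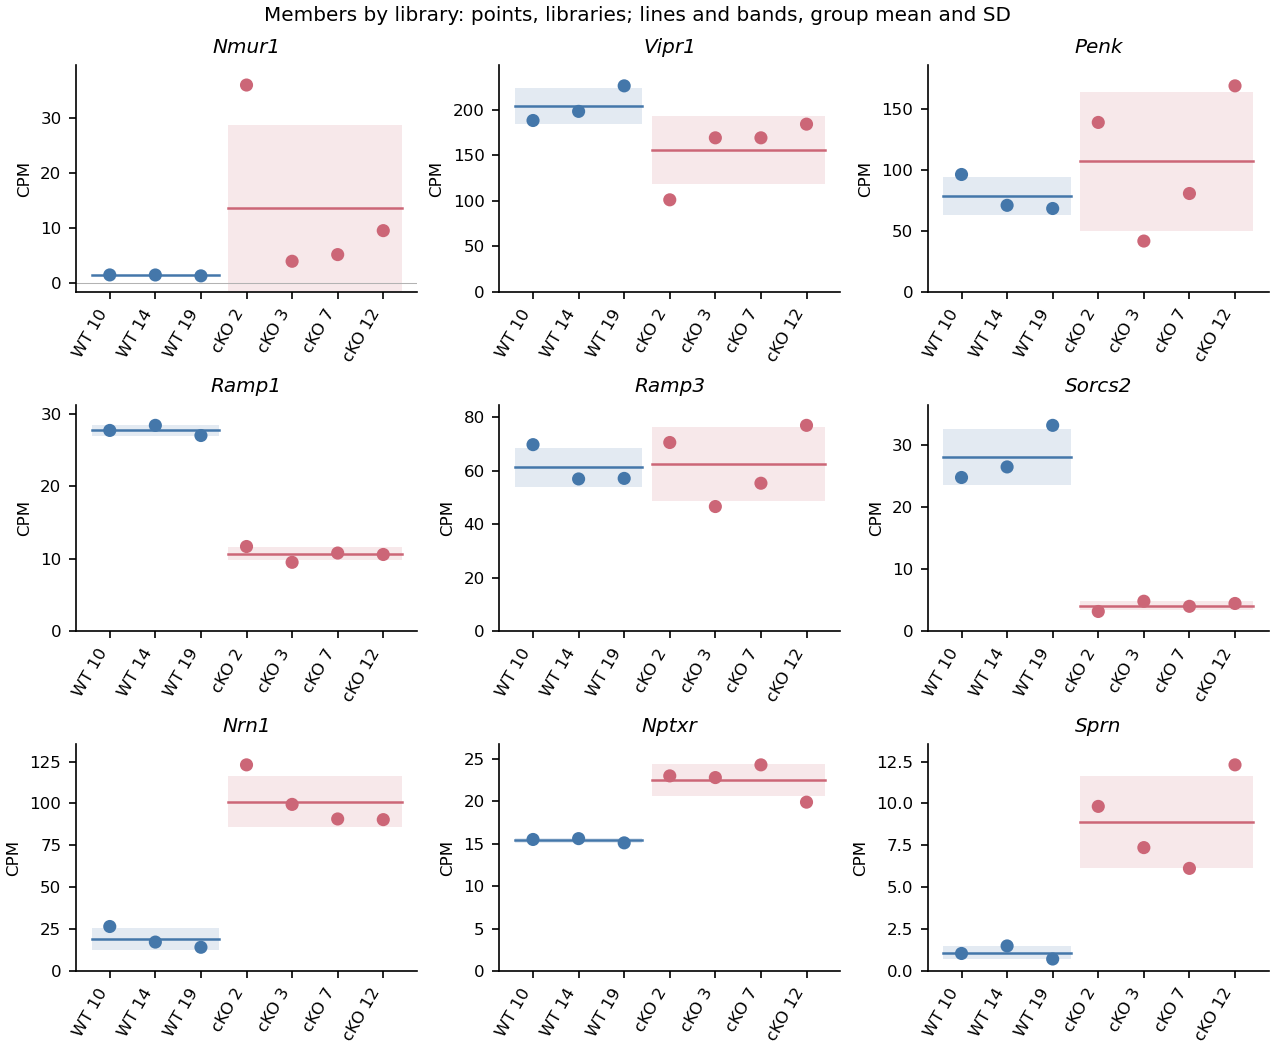
CPM of the 9 genes (vertical axes, which include 0) in each library (horizontal axes), with lines and bands for the group mean and SD of 3 WT (blue) and 4 cKO (red) libraries. Ramp1, Sorcs2 and, by less, Vipr1 are lower in every cKO library than in every WT library, and Nrn1, Nptxr, Sprn and Nmur1 higher. Nmur1 and Penk spread widely among the cKO libraries.

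Among the receptors, Nmur1 (ENSMUSG00000026237, chromosome 1, 86386303 to 86426228 on mm10, minus strand) was scarce in WT and uneven in cKO. It had 1.43, 1.42 and 1.26 CPM in WT replicates 10, 14 and 19. In cKO it had 35.9, 3.91, 5.12 and 9.47 CPM in replicates 2, 3, 7 and 12. All cKO libraries were above all WT libraries, but the highest cKO library was 9.19 times the lowest, where WT libraries differed by 1.14 times. The means were 13.6 ± 15.1 and 1.37 ± 0.0962 CPM (SD, n = 4 and 3), a log2 fold change of 3.29 ± 0.79 (SE). Without cKO replicate 2 it was 2.16, and the other cKO libraries were still 3.91 or higher. Limma voom, which gives an outlying library less weight, put it at 2.09.

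The genes whose profile over the 7 libraries was nearest to that of Nmur1 were Pde7b, Il5 and Klrg1, among 9708 protein-coding genes of mean CPM at least 5. Their root-mean-square differences from Nmur1, in log2 CPM with each gene's mean subtracted, were 0.60, 0.68 and 0.70. Il5, a type 2 cytokine gene, had 27.3, 2.7, 6.25 and 19.4 CPM in cKO replicates 2, 3, 7 and 12 and 0.473 to 1.82 in WT. Pde7b, which encodes an enzyme that breaks down cyclic AMP, had 21.8 CPM in cKO replicate 2, 4.25 to 6.86 in the other cKO libraries and 1.86 to 2.05 in WT. Both were thus highest in the library that was highest for Nmur1, which follows in part from their choice by profile over these same libraries. The summed level of the 8 ILC2 markers ran in the order of Nmur1 in cKO, at 433, 110, 134 and 251 CPM in replicates 2, 3, 7 and 12. It was 65 to 90.5 CPM in WT. Single markers did not all follow Nmur1, and Ptgdr2 was not highest in cKO replicate 2. Of the 7 ILC2 markers tested, 0 passed the threshold in edgeR, and none was at 0 in all libraries. Il1rl1, the interleukin 33 receptor gene, had 203 CPM in cKO replicate 2, 57.4 to 72.3 in the other cKO libraries and 31.5 to 44.2 in WT. Il17rb had 31.7 CPM in cKO replicate 2 and 3.86 to 6.87 in all other libraries. Il13 was high in cKO replicates 2 and 12 (158 and 154 CPM) and overlapped WT in cKO replicate 3 (17.8 CPM). Several of these genes are also expressed by type 2 helper T cells, and their part in the Nmur1 values was not tested. The summed mast cell and basophil markers also ran in the order of Nmur1 in cKO. They were at 12.5, 4.49, 6.68 and 9.8 CPM in replicates 2, 3, 7 and 12, and at 2.51 to 5.71 in WT. B cell markers summed to 130 CPM in cKO replicate 2 and 21.3 to 105 elsewhere, and monocyte and macrophage markers to 73.9 against 18.6 to 35.5 CPM. The part of these marker lists was not tested either.

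**Figure D2:**
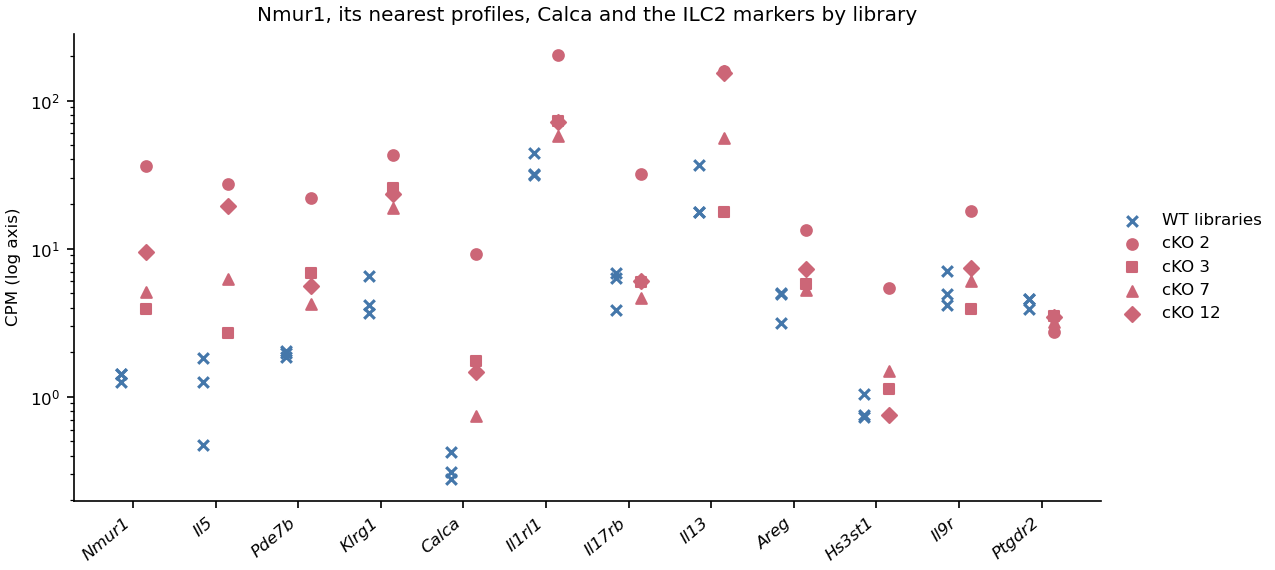
CPM on a log axis for Nmur1, its 3 nearest profiles, Calca and ILC2 markers, with 3 WT libraries as crosses and each cKO library as its own symbol. The cKO replicate 2 library (circles) is the highest of all for Nmur1 (35.9 CPM), Calca (9.17 CPM) and Il1rl1 (203 CPM), but not for Ptgdr2.

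The matching ligands had no counts. Nmu and Nms, the neuromedin precursors, and Nmur2, the other receptor, had 0 counts in every library.

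Vipr1 (ENSMUSG00000032528, chromosome 9, 121642716 to 121672954) had the highest mean CPM of the 9 genes in both groups, although Penk and Nrn1 were above it in cKO replicate 2. It had 101, 169, 169 and 184 CPM in cKO replicates 2, 3, 7 and 12. In WT it had 188, 198 and 226 CPM. The groups did not overlap, although cKO replicate 12 came within a few CPM of WT replicate 10. The log2 fold change was -0.39 ± 0.18 (SE). Without cKO replicate 2, the lowest library, it was -0.23. Its nearest profile was that of Tgfbr3, a co-receptor gene of the TGF-beta family, with a root-mean-square difference of 0.05 and 43.4 CPM in cKO replicate 2 against 69.6 to 80.4 in the other cKO libraries. Sgk3 and St8sia1 followed, both at 0.09. Vipr2, which encodes the other VIP receptor, averaged 0.766 ± 0.366 CPM over the cKO libraries and 0.76 ± 0.24 over WT (SD), a log2 fold change of -0.01 ± 0.41 (edgeR, adjusted p = 0.989). Per kilobase of exon the level of Vipr1 in WT was 35.2 ± 3.36 CPM and that of Vipr2 0.17 ± 0.0537. Vip, Adcyap1, which encodes the related peptide PACAP, and its receptor gene Adcyap1r1 had 0 counts in every library.

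The 2 receptor partners differed from each other. Ramp1 (ENSMUSG00000034353, chromosome 1, 91179822 to 91225196) had 11.7, 9.52, 10.8 and 10.6 CPM in cKO replicates 2, 3, 7 and 12. The WT values were 27.7, 28.4 and 27 CPM. The groups lay far apart and each was tight, with a coefficient of variation of 8.54% in cKO and 2.57% in WT. Mean levels were 10.7 ± 0.91 CPM in cKO and 27.7 ± 0.713 in WT (SD), and the log2 fold change was -1.38 ± 0.09 (SE), which stayed between -1.43 and -1.33 when any 1 library was left out. Ramp3 (ENSMUSG00000041046, chromosome 11, 6658521 to 6677475) had 70.5, 46.6, 55.3 and 76.9 CPM in cKO and 69.7, 56.9 and 57.1 in WT. Its groups overlapped fully, with a log2 fold change of 0.02 ± 0.16. It was higher in cKO replicates 2 and 12 than in 3 and 7, as was Penk. Nearest in profile to Ramp1 were Ehd3 (root-mean-square difference 0.10), Cpm (0.12) and Chil5 (0.12), and to Ramp3 Rilpl2 (0.06), Dbi (0.07) and Cisd1 (0.07).

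Ramp2 and Calcrl, also of this receptor family, did not pass the test. Nor did Crcp, a CGRP receptor component gene, with 26.8 ± 2.23 CPM in cKO and 25.5 ± 0.185 in WT (SD; log2 0.07 ± 0.08, edgeR adjusted p = 0.685). Calcr, the calcitonin receptor gene, had at most 3 counts in any library and was not tested. Ramp2 averaged 60.6 ± 2.42 CPM over the cKO libraries and 63.7 ± 1.81 over WT (SD; log2 -0.07 ± 0.06, edgeR adjusted p = 0.535). Calcrl, which encodes the receptor itself, had 11.2 ± 1.9 and 11.2 ± 0.66 CPM (log2 0.00 ± 0.14, adjusted p = 0.993). Per kilobase of exon, Ramp1 made up 11.5%, 13.6% and 12.8% of the sum of the 3 Ramp genes in WT replicates 10, 14 and 19. In cKO replicates 2, 3, 7 and 12 it made up 5.37%, 5.69%, 5.72% and 4.49%. Ramp3 was the most abundant of the 3 in every library, at 59.4% to 71.2% of that sum. Among the ligands, Calca, the gene for calcitonin and CGRP, was read 157, 42, 17 and 31 times in cKO replicates 2, 3, 7 and 12, against 11, 9 and 7 times in WT. That made 9.17 CPM in cKO replicate 2, 0.738 to 1.75 in the other cKO libraries and 0.276 to 0.425 in WT, and the difference did not pass the test (log2 3.23 ± 0.90, edgeR adjusted p = 0.0679). Calcb, the second CGRP gene, had at most 2 counts in any library. Adm, the adrenomedullin gene, averaged 1.75 ± 1.21 CPM over the cKO libraries and 2.74 ± 0.509 over WT (log2 -0.66 ± 0.48, adjusted p = 0.478).

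**Figure D3:**
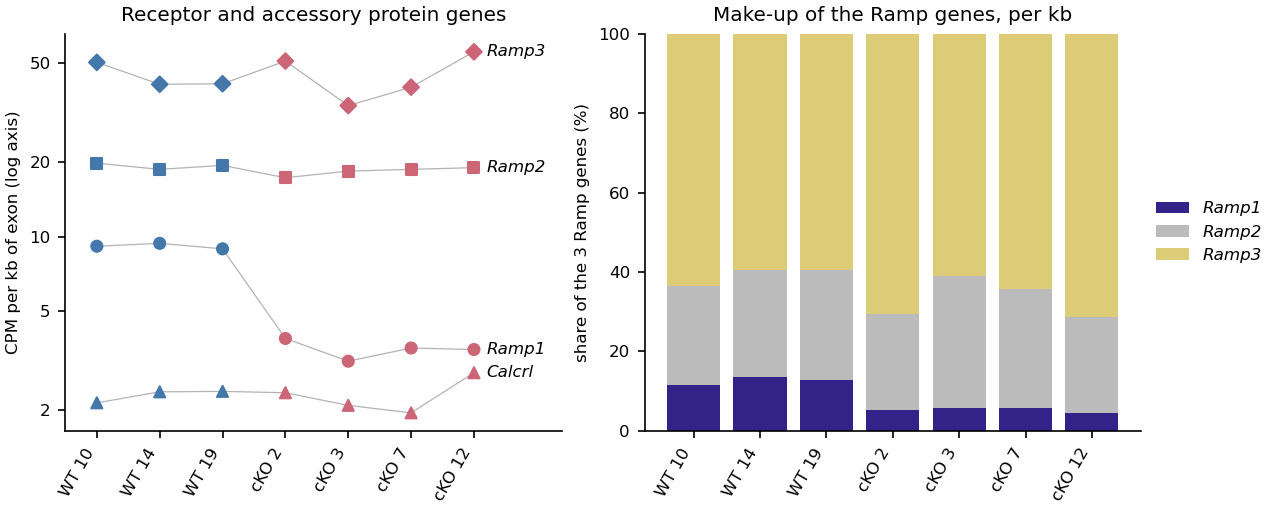
Left, CPM per kilobase of exon on a log axis for Calcrl and the 3 Ramp genes in each WT (blue) and cKO (red) library; right, the share of each Ramp gene in their sum, in percent. Ramp1 makes up 11.5% to 13.6% of the sum in WT and 4.49% to 5.72% in cKO, and the groups overlap for Ramp2 and Calcrl on the left.

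Penk (ENSMUSG00000045573, chromosome 4, 4133531 to 4138819), the precursor of the enkephalins, was abundant in both groups and uneven in cKO. It had 139, 41.7, 80.7 and 169 CPM in cKO replicates 2, 3, 7 and 12. In WT it had 96.3, 71 and 68.4 CPM. The cKO libraries lay on both sides of the WT libraries, and the highest was 4.05 times the lowest. Its coefficient of variation was 53.1% in cKO and 19.6% in WT, where 9 in 10 of 11052 genes of mean CPM at least 5 were at or under 21.1% and 15.1%. The log2 fold change was 0.45 ± 0.39 (SE), and 0.14 without cKO replicate 12. Nearest in profile were Nek6, Il1r2 and Crip2, with root-mean-square differences of 0.16, 0.25 and 0.27. Il1r2, a decoy receptor gene for interleukin 1, had 146, 52.3, 73.7 and 125 CPM in cKO replicates 2, 3, 7 and 12 and 54.2 to 78.9 in WT. Regulatory T cell markers, summed over 8 genes, ran in the same order only in part, at 2211, 1622, 1382 and 2059 CPM in these cKO libraries and 1141 to 1562 in WT. Their part in the Penk values was not tested. Of 8 regulatory T cell markers tested, Ikzf2 rose (edgeR, adjusted p = 0.0184) and Izumo1r fell (0.00358), where 6.44% of all genes tested were called. Foxp3 was not called.

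A transcript of unknown function on the opposite strand, A830012C17Rik, shares 233 bases of exon with Penk. It had 5.67, 2.24, 3.95 and 6.96 CPM in cKO replicates 2, 3, 7 and 12 and 2.84 to 3.29 in WT (log2 0.61 ± 0.33, edgeR adjusted p = 0.341). It followed the order of Penk in the cKO libraries. The use of strand in counting is not given, so reads from their shared bases cannot be assigned. Of the opioid receptor genes, Oprd1, which encodes the delta receptor, had 3 to 16 counts per library and Oprk1 at most 1 count. Ogfr, the gene for the opioid growth factor receptor, was far more abundant. It averaged 216 ± 16.9 CPM over the cKO libraries and 219 ± 17.1 over WT (SD; log2 -0.01 ± 0.08, edgeR adjusted p = 0.939). Oprm1, which encodes the mu receptor, averaged 1.35 ± 0.586 CPM over the cKO libraries and 1.47 ± 0.079 over WT (log2 -0.11 ± 0.36, adjusted p = 0.905).

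Sorcs2 (ENSMUSG00000029093, chromosome 5, 36017180 to 36398139), which encodes a sortilin family receptor that binds the precursors of neurotrophins, was the member with the largest deficit in cKO. It had 3.21, 4.86, 4.04 and 4.5 CPM in cKO replicates 2, 3, 7 and 12. The WT libraries held 24.8, 26.5 and 33.2 CPM. The groups were far apart in all libraries. Mean levels were 4.15 ± 0.712 CPM in cKO and 28.1 ± 4.44 in WT (SD), and the log2 fold change was -2.75 ± 0.15 (SE), or 6.72-fold lower, with -2.84 to -2.62 when 1 library was left out. Its nearest profile was that of Nacc2, at a root-mean-square difference of 0.12, followed by F2rl1 (0.27) and Wscd2 (0.29). None of the other sortilin family genes tested passed the threshold. Sorl1, the most abundant, had 229, 163, 148 and 136 CPM in cKO replicates 2, 3, 7 and 12 and 127 to 133 in WT (log2 0.36 ± 0.16, edgeR adjusted p = 0.212). Sort1 averaged 1.65 ± 1.12 CPM over the cKO libraries and 0.963 ± 0.25 over WT (log2 0.75 ± 0.47, adjusted p = 0.416), and Sorcs1 0.61 ± 0.287 and 0.265 ± 0.173 (log2 1.18 ± 0.56, adjusted p = 0.263). Sorcs3 had 2 counts in cKO replicate 3 and 0 in all other libraries.

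Nrn1 (ENSMUSG00000039114, chromosome 13, 36725361 to 36735131, minus strand) encodes neuritin, a protein anchored to the cell surface that promotes neurite outgrowth and is also known from regulatory and anergic T cells. It had 123, 99.4, 90.7 and 90.3 CPM in cKO replicates 2, 3, 7 and 12. The WT libraries held 26.5, 17.2 and 14.1 CPM. The lowest cKO library was above the highest WT library by more than 3-fold. Mean levels were 101 ± 15.1 CPM in cKO and 19.2 ± 6.44 in WT (SD), and the log2 fold change was 2.39 ± 0.21 (SE), or 5.23-fold higher, with 2.21 to 2.68 when 1 library was left out. Nearest in profile were Lrrk1 (root-mean-square difference 0.14), Klrg1 (0.21) and Gpr15 (0.29). Natural killer cell markers also summed higher in cKO, at 96.5 to 104 CPM. In WT replicates 10, 14 and 19 they summed to 55.3, 57.8 and 84.9 CPM, the reverse of the order of Nrn1. Of 6 tested, Klrb1c, Klre1 and Eomes rose (edgeR, adjusted p of 0.0031, 0.000143 and 0.000653) and 0 fell, where 2.79% of all genes tested rose. Of these 3, 2 were above the minimum of the filter on low counts in every WT library. The part of these markers in the Nrn1 values was not tested. Klrg1, a receptor gene of effector lymphocytes, was among the 3 nearest profiles of 3 members, Nrn1, Nmur1 and Sprn. It had 43, 25.8, 18.9 and 23.4 CPM in cKO and 3.7 to 6.54 in WT. The paralog Nrn1l averaged 0.777 ± 0.338 CPM over the cKO libraries and 1.14 ± 0.0536 over WT (log2 -0.52 ± 0.34, edgeR adjusted p = 0.432). Fars2, on the opposite strand, shares 501 bases of exon with Nrn1 and was not called (log2 0.20 ± 0.10, adjusted p = 0.312).

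Nptxr (ENSMUSG00000022421, chromosome 15, 79786351 to 79804766, minus strand) encodes the neuronal pentraxin receptor, which gathers glutamate receptors at synapses. It had 23, 22.8, 24.3 and 19.9 CPM in cKO replicates 2, 3, 7 and 12. The WT values were 15.5, 15.6 and 15.1 CPM. The groups did not overlap, with a log2 fold change of 0.55 ± 0.09 (SE), or 1.46-fold higher. Npcd, a gene on the same strand, shares 890 bases of exon with Nptxr, so the division of reads between them is uncertain. Npcd rose by about as much, from 11.8 ± 0.544 to 16.7 ± 1.14 CPM (SD; log2 0.50 ± 0.09, edgeR adjusted p = 0.0125), and was the third nearest profile of Nptxr (root-mean-square difference 0.08) after Casz1 (0.04) and Vwa5a (0.07). Its call was lost without any 1 of the WT libraries (adjusted p from 0.0513 to 0.0687) and with the marker covariate (0.0557). The secreted pentraxins were nearly absent: Nptx1 averaged 0.279 ± 0.237 CPM over the cKO libraries and 0.243 ± 0.26 over WT (adjusted p = 0.937), and Nptx2 had 1 count in WT replicate 10 and 0 elsewhere.

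Sprn (ENSMUSG00000045733, chromosome 7, 140150628 to 140154877, minus strand) encodes Shadoo, a relative of the prion protein. It had 9.82, 7.36, 6.12 and 12.3 CPM in cKO replicates 2, 3, 7 and 12. In WT it had 1.04, 1.49 and 0.709 CPM. All cKO libraries were above all WT libraries. Mean levels were 8.9 ± 2.74 CPM in cKO and 1.08 ± 0.393 in WT (SD), and the log2 fold change was 3.02 ± 0.32 (SE), or 8.12-fold higher, with 2.80 to 3.33 when 1 library was left out. Nearest in profile were Spry2 (root-mean-square difference 0.47) and then Nrn1 (0.49), the only member among the nearest profiles of another. Prnp, the prion protein gene, averaged 11.1 ± 2.49 CPM over the cKO libraries and 7.3 ± 1.31 over WT (SD; log2 0.60 ± 0.19, edgeR adjusted p = 0.107). Mtg1, on the opposite strand, shares 159 bases of exon with Sprn and was not called (log2 0.12 ± 0.12, adjusted p = 0.623).

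**Figure D4:**
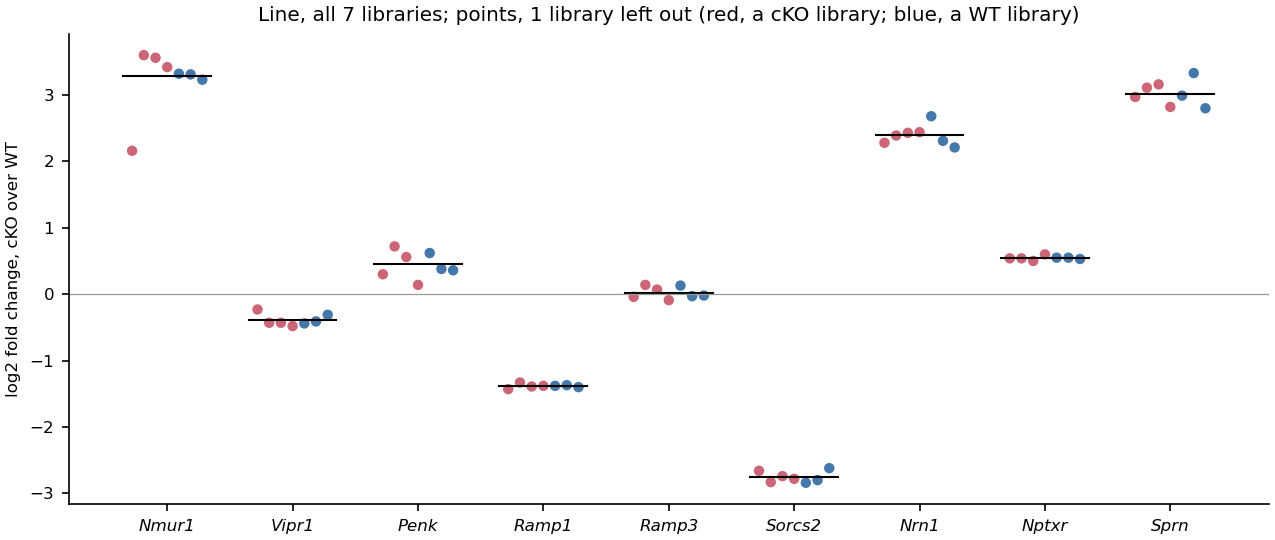
Log2 fold change of each gene (vertical axis, cKO over WT) with all 7 libraries as a line and with 1 library left out as points, red where a cKO and blue where a WT library was left out. Nmur1 is at 3.29 with all libraries and at 2.16 without cKO replicate 2, and the points of Ramp1, Sorcs2 and Nptxr stay close to their lines.

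Ranked by level per kilobase of exon in WT, Penk (48.1 CPM), Ramp3 (44.4) and Vipr1 (35.2) came first. Penk and Ramp3 overlapped between libraries, and Vipr1 lay below both. Ramp1 (9.17) and Nrn1 (8.55) followed with overlapping ranges, then Sorcs2 (3.2) and Nptxr (2.98), which also overlapped. Nmur1 (0.809) and Sprn (0.321) were lowest and apart from each other. In cKO the same levels were 65.8 for Penk, 45.2 for Ramp3, 44.8 for Nrn1 and 26.8 for Vipr1, so Nrn1 stood within the range of Ramp3 and above that of Vipr1. Sorcs2 was the lowest, at 0.472 CPM per kilobase. Levels per kilobase rest on the full set of annotated exons, which may exceed those used in these cells.

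The difference at each gene was set beside its neighbours in the genome. Of 18 tested genes next to or overlapping a member, Npcd rose and 0 fell in edgeR, where 6.44% of all genes tested were called. Npcd shares 890 bases of exon with Nptxr on the same strand, so its reads are not independent of that member. Olfr524, 43.6 kb from Sprn, averaged 1.57 ± 0.47 CPM over the cKO libraries and 0.649 ± 0.28 over WT (SD; log2 1.25 ± 0.37, adjusted p = 0.0856). Rbm44 and Ube2f beside Ramp1, and Afap1 and Grpel1 beside Sorcs2, were not called, with adjusted p of 0.398, 0.255, 0.529 and 0.609.

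Related genes, the members left out, were described by lists of ligands, receptors and signalling partners. Of 266 genes in 7 lists, 264 were in the table and 99 were tested. In edgeR 4 rose and 13 fell, 17.2% of those tested against 6.44% of all genes, with a median log2 fold change of 0.00 against 0.01. The lists were chosen with earlier results of these data known. Of the 17 called genes, Grp, Anpep, Scg5 and Mc1r passed the filter on low counts through the group where they were high. Avpr2 shares 81.3% of its exon bases with Arhgap4, which also fell. Nothing is therefore read from the larger share. The 17 became 11, 10 and 8 without WT replicate 10, 14 and 19, and 26 with DESeq2.

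**Figure D5:**
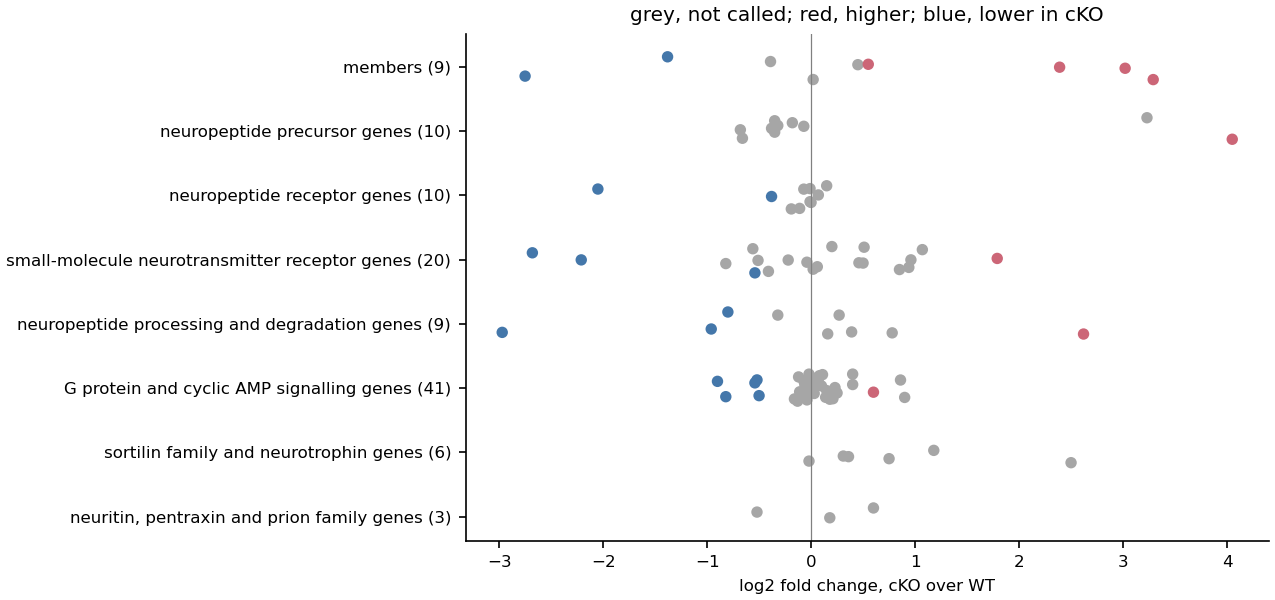
Log2 fold change (horizontal axis, cKO over WT) of the 9 members and of the tested genes of each of the 7 related lists, with the number tested in parentheses. Red and blue points passed the edgeR threshold as higher and lower in cKO; the cyclic AMP list has 5 of its 6 called genes on the lower side, and the sortilin and neuritin lists have none.

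Of 10 tested neuropeptide precursor genes, Grp rose and 0 fell. Grp, the gene for gastrin-releasing peptide, was read 27, 11, 13 and 23 times in cKO replicates 2, 3, 7 and 12, against 1, 3 and 0 times in WT replicates 10, 14 and 19 (edgeR, adjusted p = 0.0139). It passed the filter on low counts through the cKO libraries, and leaving out WT replicate 10 or 19 ended its call (adjusted p of 0.0713 and 0.0571). The most abundant precursor gene beside Penk was Nmb, which averaged 8.21 CPM over the cKO libraries and 10.3 over WT (log2 -0.32 ± 0.10, adjusted p = 0.105).

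Of 10 tested neuropeptide receptor genes, 0 rose and Avpr2 and Mc1r fell. Avpr2, the gene for a vasopressin receptor, averaged 49.2 ± 4.41 CPM over the cKO libraries and 64.1 ± 5.74 over WT (SD; log2 -0.38 ± 0.09, edgeR adjusted p = 0.0346). Arhgap4 on the opposite strand, at a mean of 230 CPM, shares 81.3% of the exon bases of Avpr2, so these reads may belong to either gene. Arhgap4 itself fell by nearly the same amount (203 and 266 CPM; log2 -0.39 ± 0.08, edgeR adjusted p = 0.0216). The Avpr2 call was lost in 7 of 15 alternatives, among them the removal of any library except cKO replicate 3. Mc1r, a melanocortin receptor gene, had 0.202 ± 0.111 and 0.88 ± 0.161 CPM (log2 -2.05 ± 0.42, adjusted p = 0.0197). It passed the filter on low counts through the WT libraries, where it was high, and its call was lost without any 1 of the WT libraries (0.0695 to 0.0891) and with the marker covariate (0.0756).

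Of 20 tested receptor genes for small-molecule neurotransmitters, 1 rose and 3 fell, among them Gria3, which rose, and Grm6 and Gabrr2, which fell. Grm6, a glutamate receptor gene of retinal bipolar cells, had 0.876, 0.915, 1.43 and 1.18 CPM in cKO and 7, 5.45 and 8.98 in WT (log2 -2.68 ± 0.24, edgeR adjusted p = 0.000343). Gabrr2, a GABA receptor gene, fell by 2.21 ± 0.25 on the log2 scale (adjusted p = 0.000909), from 6.19 ± 1.34 to 1.33 ± 0.339 CPM. Gria3, an AMPA-type glutamate receptor gene, rose from 0.956 ± 0.23 to 3.31 ± 0.504 CPM (log2 1.79 ± 0.24, adjusted p = 0.00304).

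Of 9 tested genes for neuropeptide processing and degradation, Anpep rose and Dpp4, Cpe and Scg5 fell. Dpp4 encodes the surface peptidase CD26, which cleaves several neuropeptides. It had 60.9, 59.5, 64.5 and 48.1 CPM in cKO and 101, 101 and 102 in WT (log2 -0.80 ± 0.09, edgeR adjusted p = 0.00108). Cpe, which encodes a carboxypeptidase that trims neuropeptides, fell from 8.07 ± 1.26 to 4.17 ± 0.588 CPM (log2 -0.96 ± 0.17, adjusted p = 0.0106). Its call was lost without WT replicate 10 (0.0605) or 14 (0.0644). Scg5, which encodes a chaperone of prohormone convertase 2, had 3, 9, 7 and 1 counts in cKO and 48, 51 and 49 in WT (adjusted p = 0.00372). It passed the filter on low counts through the WT libraries, where it was high. Anpep, an aminopeptidase gene, rose from 0.464 ± 0.0755 to 2.9 ± 1.46 CPM (log2 2.62 ± 0.41, adjusted p = 0.00621), and it passed the filter through the cKO libraries.

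Of 41 tested genes for G proteins and cyclic AMP signalling, 1 rose and 5 fell, with a median log2 fold change of 0.03. Crtc3, a coactivator gene of the cyclic AMP response, fell from 250 ± 7.99 to 177 ± 9.18 CPM (log2 -0.50 ± 0.06, edgeR adjusted p = 0.00134). Adcy6, an adenylyl cyclase gene, had 48.8, 71.8, 80.1 and 71.4 CPM in cKO and 110, 118 and 133 in WT (log2 -0.82 ± 0.14, adjusted p = 0.0106). Rapgef4, which encodes a cyclic AMP sensor, fell from 75 ± 5.75 to 40 ± 10.2 CPM (adjusted p = 0.0167), and Pde8a, a phosphodiesterase gene, from 31.7 ± 0.877 to 21.9 ± 3.08 CPM (0.0154). Pde3b, another phosphodiesterase gene, fell and Gnaq, the gene for a Gq subunit, rose from 21.3 ± 0.77 to 32.3 ± 5.11 CPM (0.0167); these and Gnas were named after their values were seen. Gnas, the gene for the Gs subunit through which VPAC1 and the CGRP receptor signal, averaged 705 CPM over the cKO libraries and 611 over WT (log2 0.21 ± 0.07, adjusted p = 0.107). The calls of Gnaq and Pde8a were lost without any 1 of the WT libraries (adjusted p from 0.0576 to 0.0769), that of Adcy6 without WT replicate 19 (0.0564), and those of Rapgef4 and Pde3b without WT replicate 14 or 19 (0.0507 to 0.0847) and with the marker covariate (0.0601 and 0.0773).

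Of 6 tested sortilin and neurotrophin genes and 3 tested neuritin, pentraxin and prion family genes, 0 were called by edgeR. Ntrk3, a neurotrophin receptor gene, averaged 10.5 CPM over the cKO libraries and 8.42 over WT (log2 0.31 ± 0.36, adjusted p = 0.69). Of the neuron markers, Map2, which encodes a microtubule protein, rose from 0.792 ± 0.125 to 2.87 ± 0.939 CPM (log2 1.84 ± 0.30, adjusted p = 0.00748).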

How the data were processed

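The authors deposited raw read counts per Ensembl gene for 7 libraries, 1 column each, as whole numbers whose totals differ show. The build mm10 and bcl2fastq 2.17 are named, per the submitters' processing notes. Per the labels' protocols, libraries were made with a stranded kit after mRNA enrichment. The aligner, the counting tool and its use of strand were not stated in any label or header used. Symbols and exons came from GENCODE M21, which matched 37693 of 39017 identifiers, and start regions from RefSeq.

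Counts were filtered with filterByExpr (minimum count 10), scaled by TMM and compared between cKO and WT by edgeR 4.0.16 (quasi-likelihood test, R 4.3.3) without covariates. Benjamini-Hochberg adjustment ran over all 15968 tested genes, with 0.05 as the threshold. Standard errors were derived from the F statistic. Profiles used log2 CPM with a prior count of 2. No 2 libraries were duplicates (lowest chi-square per gene 6.28). Counts of 15968 genes were simulated for this comparison, with changes given only to genes of mean count at least 50. The test recovered 58% of 50 genes given a log2 change of 0.5, 94% of those given 1 and 100% of those given 2 or 3. Recovery of genes with lower counts was not measured. Of its 197 calls, 21 were unchanged genes, or 10.7%, above the threshold of 0.05.

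The comparison was repeated with DESeq2 1.42.0, with its size factors or upper-quartile scaling in edgeR, with voom and quality weights in limma 3.58.1, without a filter, with a stricter one (1 CPM or more in 3 libraries and a mean of 5 or more), a threshold of 0.1, a covariate of B cell, monocyte and macrophage, and dendritic cell markers, and each library left out. Removal of Gm42418 was added after seeing the data. The genes and lists were chosen with earlier results of these data known. In each related list up to 4 called genes with the lowest p and close relatives of the members were named. The values of 1 called gene are not reported here. Figures were drawn with matplotlib 3.10.9.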

Additional observations from a re-analysis of the deposited data

Results flagged for a closer look

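Among 57 values looked at in the 4 cKO libraries, 2 held a library far from the rest, where chance flags about 1 in 20. Calca had 9.17 CPM in cKO replicate 2, against 0.738 to 1.75 in the other cKO libraries. The summed level of the endothelial cell markers was 183 CPM in cKO replicate 2, against 194 to 196 in the other cKO libraries and 188 to 221 in WT. Nmur1, with 35.9 CPM in the same library, came just short of that limit (a gap of 0.826 of the range, against 0.829).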

How the results depend on the processing

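No paired analysis was possible because the cKO and WT libraries share no replicate number. Over all genes, 1028 were called, 1644 at a threshold of 0.1, 1633 with DESeq2, 1729 with limma voom and 646 with the marker covariate. With 1 library left out the count ran from 419 to 1065, lowest without a WT library. Of the 9 members, 6 were called, and 5 without cKO replicate 12 or any WT library or with the marker covariate, where Nmur1 missed the threshold. Nothing is read from these counts, since this contrast chose the members. The 17 related genes became 26 with DESeq2 and 10 with the stricter filter, which tests fewer genes, and ran from 8 to 19 with 1 library left out. Over 413 gene results under the alternatives, 0 called values changed direction, and 41 results of genes other than the members lost a call. Among the members, 2 results moved by more than the spread between libraries, both of Nmur1 (2.16 without cKO replicate 2 and 2.09 with limma voom). Ramp3 and Penk, which were not called, ran from -0.17 to 0.14 and from -0.10 to 0.72 on the log2 scale. Causes were not tested. Grp had at most 3 counts in a WT library, and Scg5 and Mc1r at most 9 and 7 in a cKO library, so their levels there rest on few reads.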
